A study of Mus musculus with 28 samples.

Results

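Cytokines, chemokines, tumour necrosis factor (TNF) family members and their receptors were followed in the liver of mice that were fasted or fed a fat-rich diet. The members were all genes of the array's probe annotation whose symbol begins as the mouse symbols of these families do (Il, Ccl, Ccr, Cxcl, Cxcr, Tnf, Ifn and Csf, with Lta and symbols in Ltb), with 1 exception that is not reported here. There were 130 such genes among 4799 named genes. They comprised 20 interleukins, 24 interleukin receptors and accessory proteins, 26 chemokines, 14 chemokine receptors, 9 TNF ligands and lymphotoxins, 12 TNF receptors, 4 TNF-induced proteins, 12 interferons and interferon receptors, and 4 colony-stimulating factors and receptors. The remaining 5 (Il4i1, Ltb4r1, Ltbp1, Ltbp2 and Ltbp3) share the letters of these symbols but encode an enzyme, a lipid receptor and matrix proteins.

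All 15 mice were of the inbred strain C57BL/6 and 12 to 16 weeks old, with 5 mice in each of 3 groups. Fasted mice ate chow for 2 weeks and then had no food for 16 hours before liver RNA was taken, high-fat mice ate a high fat diet for 2 weeks, and control mice ate chow for 2 weeks. The labels do not give the sex of the mice. RNA of 2 livers was hybridised together in the dyes Cy3 and Cy5 and the dyes were then exchanged on a second array, which gave 28 arrays and 14 pairs of mice: 4 of fasted with control, 5 of high-fat with control and 5 of fasted with high-fat livers.

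Cytokines are secreted proteins through which cells signal to their neighbours by binding receptors at the cell surface. Chemokines are the cytokines that direct the migration of leukocytes, and the TNF and interleukin-1 families act largely through the transcription factor NF-kappaB, whereas interferons and many interleukins act through Janus kinases and STAT factors. In the liver the resident macrophages (Kupffer cells), endothelial cells and lymphocytes are the main producers, and hepatocytes respond to interleukin-1, interleukin-6 and TNF by changing the plasma proteins they secrete.

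Each value below is a log2 ratio of 2 livers, the mean of both arrays of a dye swap and of both spots of a gene. A positive value means more RNA in the liver named first. This direction was read from the titles and the dyes listed in the labels and is likely rather than stated, and the log base was taken as 2. Where the pairs are not named, they are listed as fasted 11 over control 4, 15 over 2, 13 over 5 and 14 over 3, as high-fat 8 over control 4, 10 over 3, 7 over 5, 9 over 2 and 6 over 1, and as fasted 13 over high-fat 8, 12 over 6, 11 over 9, 14 over 7 and 15 over 10. If the direction were turned, higher and lower would change places throughout. The table holds ratios only, so neither the absolute level of a gene nor its signal over background is known, and the liver's identity could not be checked from levels of marker genes. In whole liver RNA, fewer cells of a type and less RNA per cell cannot be told apart. Probes of near-identical relatives, such as the interferon alpha genes (Ifna1, Ifna2 and the like), Ccl21b, Ccl27a, and Ccl2, Ccl8 and Ccl12, can bind each other's transcripts, so these values are uncertain as to the member.

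The pair of fasted 15 and control 2 stood apart. The second array of this pair had the widest spread of all 28 arrays, with a standard deviation (SD) of its log2 ratios of 1.26, against 0.293 on the narrowest. In this pair 28 of 130 members (21.5%) had a log2 ratio above 0.8, as had 18.1% of all named genes, whereas no other pair had more than 2 such members. Of these 28 members, 20 were below 0 on the first array of the pair, and all 28 lay between 1.12 and 3.67 on the second array. Ccl5, a chemoattractant of T cells, had 0.87 on the first array and 2.44 on the second. Il7, a growth factor of lymphocytes, had -0.68 on the first array and 2.99 on the second. The SD across the 130 members was 0.541 in this pair and between 0.149 and 0.401 in the other pairs. The calls below are therefore also given without this pair, an alternative chosen after seeing the data.

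**Figure D1:**
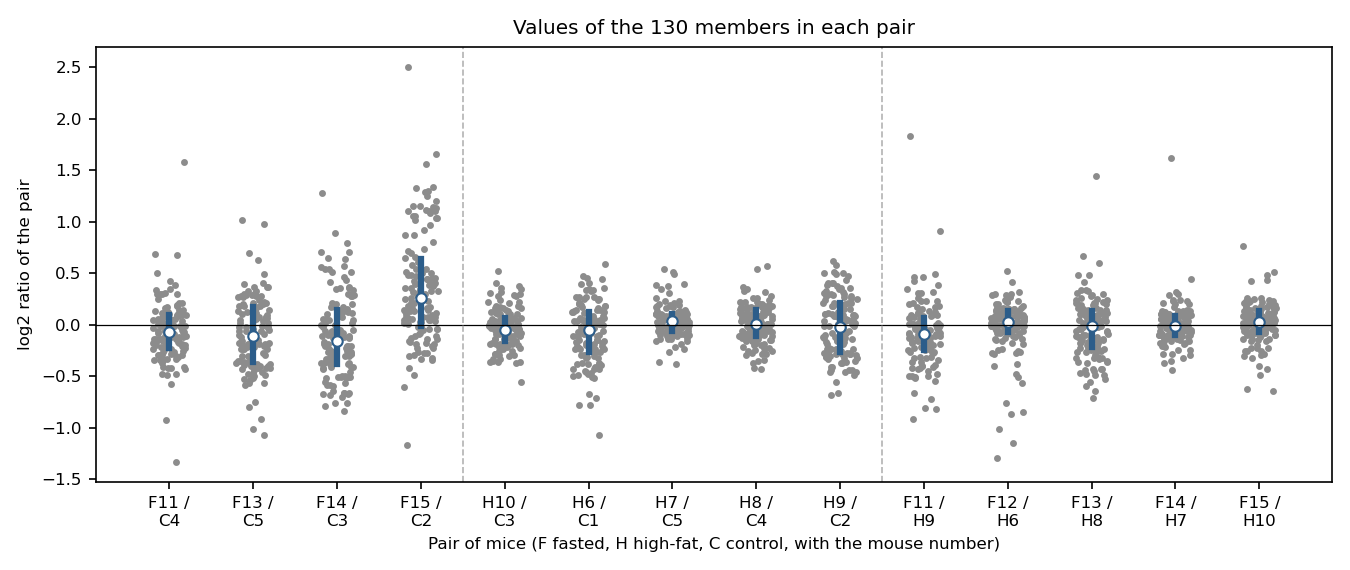
Log2 ratios of the 130 members (grey points) in each of the 14 pairs of mice, with the median (open circle) and the middle 50% of members (blue bar); F, H and C are fasted, high-fat and control mice with their numbers, and the first-named mouse is on top of the ratio. The members of fasted 15 over control 2 reach 2.50 and have a median of 0.26, whereas the medians of the other pairs lie between -0.16 and 0.04.

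Fasted livers differed from control livers in few of these genes. In limma's moderated test with Benjamini-Hochberg adjustment over all 11457 features of the array, 3 of 130 members rose (2.31%) and 3 fell (2.31%) at an adjusted p below 0.05. Among all named genes 4.15% rose and 5.54% fell, so the members were called at no higher a share than the named genes as a whole. At an unadjusted p below 0.05, 6 members were higher and 11 lower (4.62% and 8.46%), beside 9.54% and 11.7% of named genes. The members that rose were Ltbp2, Cxcl13 and Tnfaip1, and those that fell were Cxcl10, Ccl9 and Lta. Without the 5 genes that only share the letters, 2 of 125 rose and 3 fell. The median log2 ratio of fasted over control livers was 0.01 over the members and 0.01 over all named genes, and the median absolute ratio was 0.09 and 0.10.

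Between high-fat and control livers 0 of 130 members passed the limma threshold in either direction. The same comparison called 0.0625% of named genes higher and 0.271% lower. At an unadjusted p below 0.05, 1 member was higher and 4 were lower (0.769% and 3.08%), beside 2.19% and 4.61% of named genes. Between fasted and high-fat livers 3 members rose (2.31%), Ltbp2, Cxcl13 and Il1rap, and 0 fell, beside 3.31% and 3.06% of named genes. At an unadjusted p below 0.05, 6 members were higher and 9 lower in fasted than in high-fat livers (4.62% and 6.92%), beside 8.75% and 9.77% of named genes.

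**Figure D2:**
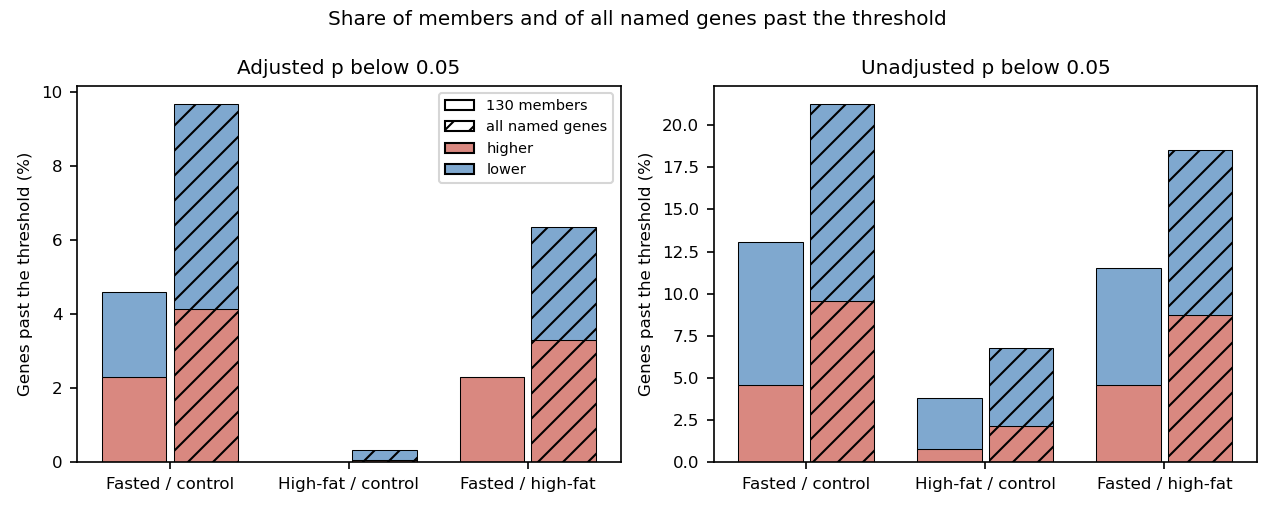
Percent of the 130 members (plain bars, left of each couple) and of all named genes (hatched bars, right) past an adjusted p of 0.05 (left panel) and an unadjusted p of 0.05 (right panel) in each comparison, split into higher (red) and lower (blue) in the first-named group. In every comparison and at both thresholds the bar of the members is the shorter one.

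The fitted ratios had these margins of error. For fasted over control livers the 95% confidence interval of 111 of 130 members (85.4%) lay within a log2 ratio of -0.5 to 0.5, a 1.41-fold change either way. The interval of 126 members (96.9%) lay in that range for high-fat over control livers, and of 116 (89.2%) for fasted over high-fat livers. Among named genes the shares were near these, at 82.2%, 94.25% and 86.4% in the same order. Fitted ratios ran from -0.60 (Cxcl10) to 1.35 (Ltbp2) in fasted over control livers and from -0.27 (Ccl9) to 0.37 (Il1r1) in high-fat over control livers. In fasted over high-fat livers they ran from -0.45 (Il16) to 1.39 (Ltbp2). Without the genes that only share the letters, Ltbp2 among them, the highest ratios were 0.37, 0.37 and 0.31 in the same order. Both spots of a gene correlated across the 14 pairs with a median r of 0.34 over the members and 0.50 over named genes. An r above 0.5 was found for 58 of 130 members (44.6%) and for 50.1% of named genes.

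**Figure D3:**
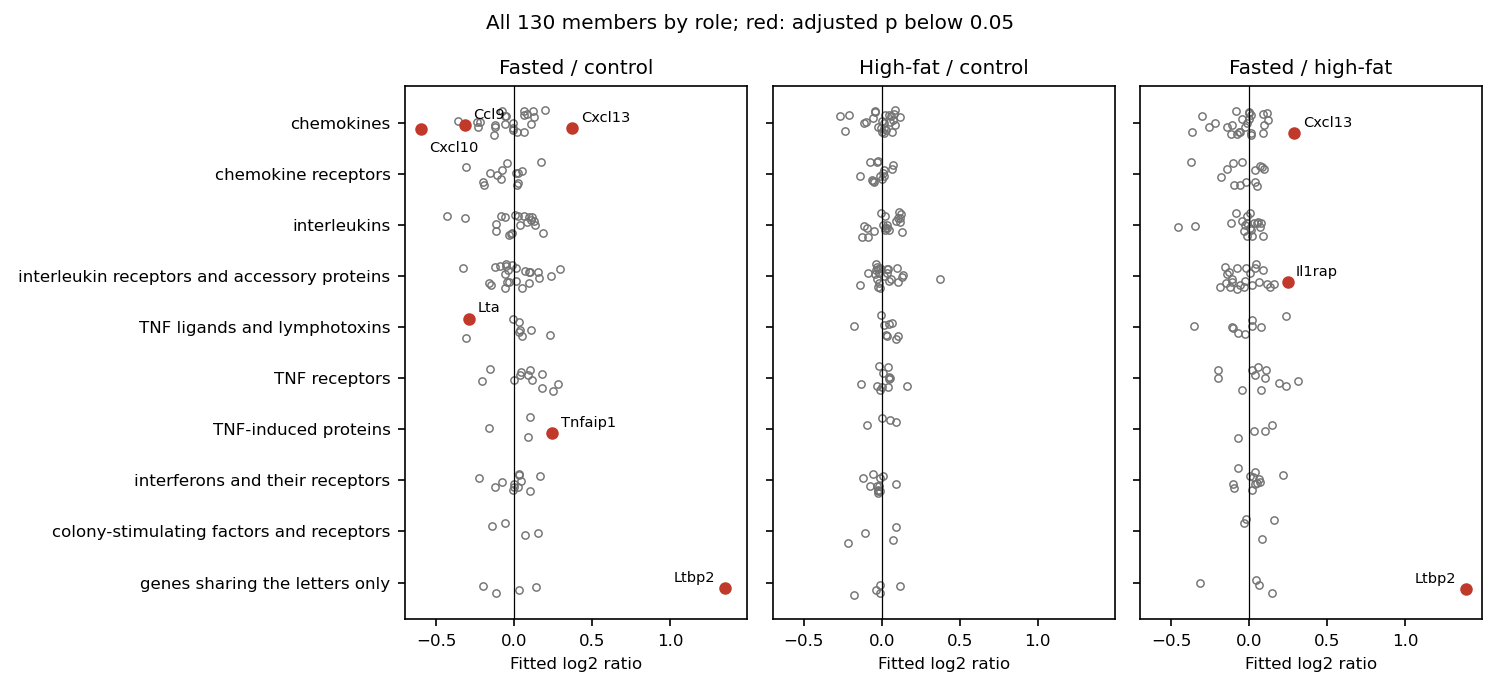
Fitted log2 ratios of all 130 members, arranged by role, for fasted over control, high-fat over control and fasted over high-fat livers; red points passed an adjusted p of 0.05. The members called were 6 in the first comparison, 0 in the middle one and 3 in the last, and only Ltbp2 exceeded 1.

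Of the 26 chemokines, 1 rose and 2 fell in fasted against control livers, 23 did not pass the test, and the median log2 ratio was -0.03. Cxcl13, which attracts B cells through the receptor CXCR5, rose. Its log2 ratios of fasted over control livers were 0.42 (fasted 11 and control 4), 0.42 (fasted 15 and control 2), 0.63 (fasted 13 and control 5) and 0.41 (fasted 14 and control 3). All 4 pairs were higher in the fasted liver, and 7 of the 8 arrays were too. The fit gave 0.37 ± 0.08 (SE), a 1.29-fold higher level, with an adjusted p of 0.00656 and a 95% interval of 0.20 to 0.54. Leaving out any 1 of the 15 mice kept this call, with adjusted p up to 0.0498, and without the pair of fasted 15 and control 2 the ratio was 0.36 (adjusted p = 0.0146).

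In fasted against high-fat livers Cxcl13 rose as well; the same fasted mice enter both comparisons. The 5 pairs gave 0.48 (fasted 13 and high-fat 8), 0.20 (fasted 12 and high-fat 6), 0.23 (fasted 11 and high-fat 9), 0.01 (fasted 14 and high-fat 7) and 0.14 (fasted 15 and high-fat 10). All 5 were above 0, the lowest of them barely so. The fitted ratio was 0.29 ± 0.08 (SE), with an adjusted p of 0.0324, and 0.28 (adjusted p = 0.0395) without the pair of fasted 15 and control 2. The fasted liver was higher on 8 of 10 arrays. This call was lost without any 1 of control 3, 4 and 5, fasted 11, 12 and 13, and high-fat 6, 8, 9 and 10, with adjusted p from 0.0539 to 0.147. High-fat over control livers had a fitted Cxcl13 ratio of 0.08 ± 0.08 (SE), with 2 of 5 pairs above 0. The spots of Cxcl13 correlated with an r of 0.27 across the pairs. Taken singly, its spots gave fasted over high-fat ratios of 0.27 and 0.31, with adjusted p of 0.137 and 0.125.

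Cxcl10, an interferon-induced chemokine that attracts T cells through CXCR3, fell in fasted against control livers. Its ratios were -1.33 (fasted 11 and control 4), 0.05 (fasted 15 and control 2), -1.07 (fasted 13 and control 5) and -0.50 (fasted 14 and control 3). The pair that stood apart was near 0 and the other 3 pairs were low, and 7 of 8 arrays were below 0. The fit gave -0.60 ± 0.16 (SE), a 1.52-fold lower level, with an adjusted p of 0.0254, and -0.70 (adjusted p = 0.0100) without that pair. In fasted over high-fat livers the ratios were -0.65 and -0.92 in the pairs of fasted 13 and fasted 11, and between 0.00 and 0.08 in absolute size in the other 3 pairs. The 2 lowest pairs of each comparison were those of fasted 11 and fasted 13. The fitted fasted over high-fat ratio was -0.37 ± 0.15 (SE) with an adjusted p of 0.216, and the high-fat over control ratio was -0.23 ± 0.15 (SE) with an adjusted p of 0.997. The fasted over control call was lost without any 1 of control 3, 4 and 5, fasted 11 and 13, and high-fat 8 and 9, with adjusted p from 0.0577 to 0.189.

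Ccl9, in mice a ligand of the receptor CCR1 on myeloid cells, also fell in fasted against control livers. The ratios were -0.57 (fasted 11 and control 4), -0.20 (fasted 15 and control 2), -0.42 (fasted 13 and control 5) and -0.59 (fasted 14 and control 3). All 4 pairs were lower in the fasted liver, as were 7 of the 8 arrays. The fit gave -0.32 ± 0.09 (SE), a 1.25-fold lower level, with an adjusted p of 0.0486. High-fat over control livers had ratios of -0.23, -0.56, -0.11, 0.10 and -0.07, with a fitted value of -0.27 ± 0.09 (SE) that did not pass (adjusted p = 0.477). Fasted and high-fat livers differed by -0.05 ± 0.09 (SE) in the fit over all pairs, with a 95% interval of -0.24 to 0.14. Of the 5 direct fasted over high-fat pairs, 4 were above 0, with a mean of 0.05, and 8 of 10 arrays were too. The fasted over control call was lost without any 1 of control 3, 4 and 5, fasted 11, 13, 14 and 15, and high-fat 7, 8 and 10, with adjusted p from 0.0657 to 0.228, and was also lost without the pair of fasted 15 and control 2 (adjusted p = 0.0640). The spots of Ccl9 correlated with an r of 0.32, and its first spot alone gave -0.20 (adjusted p = 0.488). Centring the arrays on their medians (adjusted p = 0.0646) or scaling them to the same spread (-0.20, adjusted p = 0.239) ended the call as well.

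**Figure D4:**
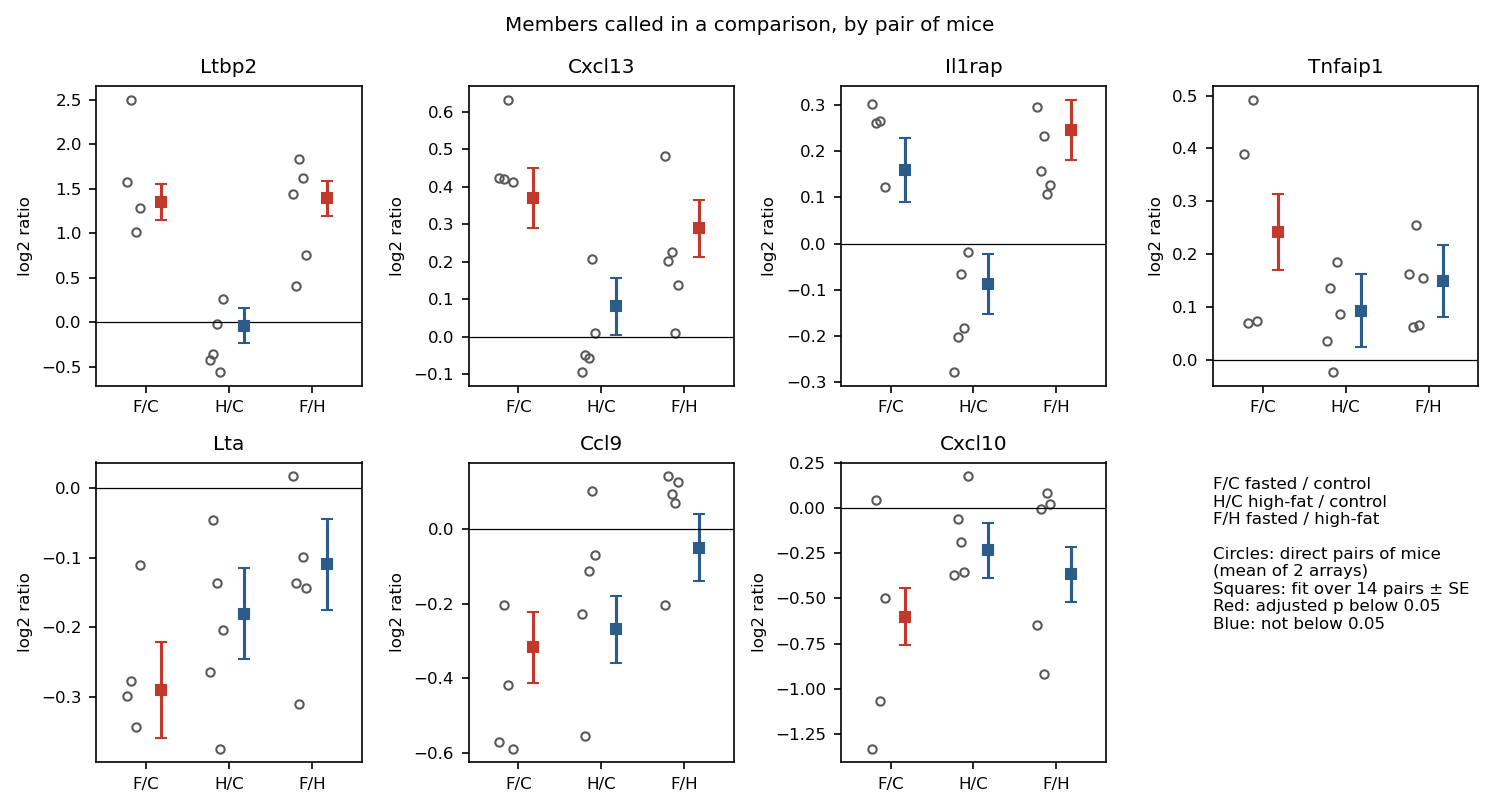
Log2 ratios of the 7 members called in any comparison. Circles are single pairs of mice (4 fasted over control, 5 high-fat over control, 5 fasted over high-fat), squares with bars are the fit over all 14 pairs ± SE, red where the adjusted p was below 0.05 and blue otherwise; each panel has its own scale. Ltbp2 is above 0.4 in all 9 pairs with a fasted mouse, whereas Cxcl10 spreads from -1.33 to 0.08 over those pairs.

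Other chemokines did not pass. Ccl22, which macrophages and dendritic cells make and which binds CCR4, had fasted over control ratios of -0.37, -0.23, -0.54 and -0.66, all below 0, and a fitted value of -0.36 ± 0.12 (SE, adjusted p = 0.0817), and -0.37 (adjusted p = 0.0916) without the pair of fasted 15 and control 2. It passed without control 1 (adjusted p = 0.0469) or high-fat 6 (0.0455) and by its second spot alone (-0.54, adjusted p = 0.0235). In fasted over high-fat livers Ccl22 had -0.71 and -0.66 in the pairs of fasted 13 and fasted 11 and -0.03 to 0.13 in the rest, with a fitted value of -0.30 ± 0.11 (SE, adjusted p = 0.159). Ccl1, a ligand of CCR8, had fitted values of -0.24 ± 0.09 (SE, adjusted p = 0.111) in fasted over control and -0.22 ± 0.08 (SE, adjusted p = 0.158) in fasted over high-fat livers. Ccl27a, a skin-homing chemokine that binds CCR10, had -0.22 ± 0.08 (SE, adjusted p = 0.145) in fasted over control livers, and -0.28 (adjusted p = 0.0407) without the pair of fasted 15 and control 2, or without mouse fasted 15 (adjusted p = 0.0347). Ccl19, a ligand of CCR7, had -0.21 ± 0.11 (SE, adjusted p = 0.935) in high-fat over control livers.

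None of the 14 chemokine receptors passed the test in any of the 3 comparisons. Cxcr2, through which chemokines draw neutrophils, was below 0 in all 4 fasted over control pairs (-0.33, -0.42, -0.02 and -0.19), with a fitted value of -0.19 ± 0.08 (SE, adjusted p = 0.160). Its fasted over high-fat value was -0.18 ± 0.07 (SE, adjusted p = 0.189). Ccr7, which guides lymphocytes and dendritic cells to lymph nodes, had fasted over high-fat ratios of 0.05, -0.76, -0.22, -0.29 and -0.64, with a fitted value of -0.37 ± 0.14 (SE, adjusted p = 0.164). The median over the 14 receptors was -0.06 in fasted over control, -0.02 in high-fat over control and -0.03 in fasted over high-fat livers.

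Of the 9 TNF ligands and lymphotoxins, 1 fell in fasted against control livers. Lta, lymphotoxin alpha, a lymphocyte product that binds TNF receptors and, joined with Ltb, the receptor Ltbr, had ratios of -0.30 (fasted 11 and control 4), -0.28 (fasted 15 and control 2), -0.34 (fasted 13 and control 5) and -0.11 (fasted 14 and control 3). All 4 pairs were lower in the fasted liver, as were 7 of 8 arrays. The fit gave -0.29 ± 0.07 (SE), a 1.22-fold lower level, with an adjusted p of 0.0127, and -0.30 (adjusted p = 0.0173) without the pair that stood apart. High-fat over control ratios of Lta were -0.26, -0.05, -0.14, -0.37 and -0.20, all below 0 and likewise on all 10 arrays, with a fitted value of -0.18 ± 0.07 (SE) that did not pass (adjusted p = 0.581). The fasted over control call was lost without control 4 (adjusted p = 0.0667), control 5 (0.0647) or fasted 11 (0.0669). The spots of Lta correlated with an r of 0.83.

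Tnf itself, the founding member of the family, had a fitted value of -0.01 ± 0.08 (SE) in fasted over control livers, with a 95% interval of -0.18 to 0.16, and of 0.09 ± 0.08 (SE) in high-fat over control livers, with an interval of -0.07 to 0.25; it is named here after its values were seen. The spots of Tnf correlated with an r of -0.11. Tnfsf4, the ligand of the T-cell receptor OX40, had 0.10 ± 0.07 (SE, adjusted p = 0.997) in high-fat over control livers.

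None of the 12 TNF receptors passed with all mice. Ltbr, the lymphotoxin beta receptor, had fasted over control ratios of 0.51, -0.32, 0.29 and 0.65, and the negative value was that of fasted 15 and control 2. The fit gave 0.25 ± 0.10 (SE, adjusted p = 0.161). Without that pair it was 0.34 ± 0.08 (SE, adjusted p = 0.0173). The call was also gained without control 2 (adjusted p = 0.0164) or fasted 15 (0.0234), which removes the same pair. With that pair kept, it was gained with all arrays scaled to the same spread (0.32, adjusted p = 0.00895). All 5 fasted over high-fat pairs of Ltbr were above 0, from 0.02 to 0.32. Tnfrsf19, also called TROY, had 0.16 ± 0.09 (SE, adjusted p = 0.964) in high-fat over control livers.

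Of the 4 TNF-induced proteins, Tnfaip1 rose in fasted against control livers. Tnfaip1 is an adaptor of a Cullin ubiquitin ligase, named for its induction by TNF in endothelial cells. Its ratios were 0.39, 0.07, 0.49 and 0.07, above 0 in all 4 pairs but close to 0 in the pairs of fasted 15 and fasted 14, and above 0 on 6 of 8 arrays. The fit gave 0.24 ± 0.07 (SE), a 1.18-fold higher level, with an adjusted p of 0.0481, and 0.27 (adjusted p = 0.0289) without the pair of fasted 15 and control 2. Its spots correlated with an r of -0.10, and the second spot alone gave 0.18 (adjusted p = 0.398). Centring the arrays (adjusted p = 0.0718) or scaling them (0.15, adjusted p = 0.258) ended the call. The call was lost when any mouse other than fasted 14 or fasted 15 was left out, with adjusted p from 0.0527 to 0.245. Tnfaip2, Tnfaip3 and Tnfaip6 did not pass.

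None of the 20 interleukins passed in any comparison with all pairs. Il18, which induces interferon gamma in lymphocytes, had fasted over control ratios of -0.92, -0.30, -0.57 and 0.17 and a fitted value of -0.32 ± 0.12 (SE, adjusted p = 0.149), and -0.31 (adjusted p = 0.176) without the pair of fasted 15 and control 2. In fasted over high-fat livers Il18 had -0.56 and -0.72 in the pairs of fasted 13 and fasted 11 and between -0.17 and 0.09 in the rest, with -0.35 ± 0.12 (SE, adjusted p = 0.106). The fasted over high-fat values of Il18, Ccl22 and Cxcl10 were each lowest in the pairs of fasted 11 and fasted 13. Il16, a chemoattractant of cells that carry CD4, had fasted over high-fat ratios of -0.47, -1.14, -0.48, -0.28 and -0.49, all below 0, and a fitted value of -0.45 ± 0.17 (SE, adjusted p = 0.157).

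Without the pair that stood apart, the result changed for Il16. Its fasted over control ratios were -0.42 (fasted 11 and control 4), 0.80 (fasted 15 and control 2), -0.91 (fasted 13 and control 5) and -0.52 (fasted 14 and control 3). Without the second of these pairs the fit gave -0.67 ± 0.12 (SE, adjusted p = 0.00247) in fasted over control and -0.57 ± 0.11 (SE, adjusted p = 0.00452) in fasted over high-fat livers, against -0.43 ± 0.18 (SE, adjusted p = 0.178) in fasted over control livers with all pairs. Leaving out control 2 or fasted 15, which removes the same pair, also gave a fasted over high-fat call (adjusted p = 0.00380 and 0.0115). With that pair kept, scaling the arrays to the same spread gave this call too (-0.58, adjusted p = 0.0456). Il3, a growth factor of blood cell precursors, and Il1f6, the ligand interleukin-36 alpha, had high-fat over control values of 0.11 ± 0.07 (SE) and -0.11 ± 0.08 (SE), both with an adjusted p of 0.997.

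Among the 24 interleukin receptors and accessory proteins, Il1rap rose in fasted against high-fat livers. Il1rap is the accessory chain that the receptors of interleukin-1, interleukin-33 and interleukin-36 share. Its 5 ratios were 0.30 (fasted 13 and high-fat 8), 0.16 (fasted 12 and high-fat 6), 0.23 (fasted 11 and high-fat 9), 0.11 (fasted 14 and high-fat 7) and 0.13 (fasted 15 and high-fat 10). Every pair was above 0, as were 8 of 10 arrays, and the fit gave 0.25 ± 0.07 (SE), a 1.19-fold higher level, with an adjusted p of 0.0349. The ratios of fasted over control livers were 0.30, 0.26, 0.26 and 0.12, above 0 on 5 of 8 arrays, with a fitted value of 0.16 ± 0.07 (SE) that did not pass (adjusted p = 0.205). The first arrays of these swaps gave 0.36 to 0.77, and the second arrays gave -0.245 to 0.016. High-fat over control ratios lay between -0.28 and -0.02, all 5 below 0, with a fitted value of -0.09 ± 0.07 (SE, adjusted p = 0.997). The call was lost without any 1 of control 3, 4 and 5, fasted 11, 12, 13 and 15, and all 5 high-fat mice, with adjusted p from 0.0568 to 0.144. The spots of Il1rap correlated with an r of 0.78, and singly they gave 0.24 and 0.25 with adjusted p of 0.0715 and 0.0914. Without the pair of fasted 15 and control 2 the ratio was 0.23 (adjusted p = 0.0410).

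Il1r1, the signalling receptor of interleukin-1 and partner of Il1rap, had the smallest p of all members in high-fat over control livers. Its ratios were 0.57 (high-fat 8 over control 4), 0.28 (high-fat 10 over control 3), 0.12 (high-fat 7 over control 5), -0.08 (high-fat 9 over control 2) and 0.59 (high-fat 6 over control 1). The ratio was above 0 in 4 of the 5 pairs, and the fit gave 0.37 ± 0.12 (SE) with an unadjusted p of 0.00523 and an adjusted p of 0.366, which did not pass. With the arrays scaled to the same spread it passed (0.48, adjusted p = 0.0411). In fasted over control livers Il1r1 had 0.67, 0.07, 0.69 and -0.12 and a fitted value of 0.23 ± 0.12 (SE, adjusted p = 0.322). Its spots correlated with an r of 0.95.

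Il18bp, the secreted decoy that binds interleukin-18, had fasted over control ratios of -0.48, 0.16, -1.01 and -0.37, with a fitted value of -0.33 ± 0.12 (SE, adjusted p = 0.134), and -0.41 (adjusted p = 0.0545) without the pair of fasted 15 and control 2, and passed without fasted 15 (adjusted p = 0.0255). Il15ra, which presents interleukin-15, was above 0 in all 5 high-fat over control pairs (0.01 to 0.41), with 0.13 ± 0.09 (SE, adjusted p = 0.997). Il17ra, a receptor of interleukin-17, and Il18rap, an accessory chain of the interleukin-18 receptor, are named after their values were seen. Il17ra had 1.30 in the pair of fasted 15 and control 2 and -0.29, -0.59 and -0.66 in the other fasted over control pairs. Its fitted value was -0.16 ± 0.18 (SE, adjusted p = 0.711) with that pair and -0.42 ± 0.10 (SE, adjusted p = 0.0129) without it. Il18rap had 1.16 in that pair and -0.22, -0.57 and -0.66 in the others, and -0.15 ± 0.17 (SE, adjusted p = 0.708) with it and -0.38 ± 0.10 (SE, adjusted p = 0.0225) without it.

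Without the pair of fasted 15 and control 2, 10 of 130 members were called in fasted against control livers, 4 higher and 6 lower, beside 4.21% and 6.23% of named genes. These were 5 of the 6 members called with all pairs (Ltbp2, Cxcl13, Tnfaip1, Cxcl10 and Lta) together with Ltbr, Il16, Il17ra, Il18rap and Ccl27a. In fasted against high-fat livers 4 were called without it, 3 higher and 1 lower, beside 3.56% and 3.65% of named genes, and in high-fat against control livers 0 were called.

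None of the 12 interferons and interferon receptors passed. Ifnar2, a chain of the type I interferon receptor, was above 0 in all 5 fasted over high-fat pairs (0.24, 0.32, 0.12, 0.05 and 0.14), with a fitted value of 0.22 ± 0.07 (SE, adjusted p = 0.0875), and it passed with the arrays scaled to the same spread (0.22, adjusted p = 0.0338). Its spots correlated with an r of 0.96. The 12 members had fitted fasted over control values between -0.22 (Ifngr1, the ligand-binding chain of the interferon gamma receptor) and 0.16 (Ifnar2). Of the 4 colony-stimulating factors and receptors none passed. Csf1, the growth factor of macrophages, was below 0 in all 5 high-fat over control pairs (-0.12, -0.04, -0.39, -0.13 and -0.43), with -0.22 ± 0.08 (SE, adjusted p = 0.638).

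The largest change among the 130 genes was in a gene that is no cytokine. Ltbp2, latent TGF-beta binding protein 2, is a protein of extracellular microfibrils. Its fasted over control ratios were 1.58 (fasted 11 and control 4), 2.50 (fasted 15 and control 2), 1.02 (fasted 13 and control 5) and 1.28 (fasted 14 and control 3), all above 1 and above 0 on all 8 arrays. The fit gave 1.35 ± 0.21 (SE), a 2.55-fold higher level, with an adjusted p of 0.000413, and 1.12 ± 0.17 (SE, adjusted p = 0.000529) without the pair of fasted 15 and control 2.

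In fasted over high-fat livers Ltbp2 had 1.44, 0.41, 1.84, 1.62 and 0.76, lowest in the pair of fasted 12 and high-fat 6. The fit gave 1.39 ± 0.20 (SE), a 2.63-fold higher level, with an adjusted p of 0.000252, and 1.28 (adjusted p = 5.68e-05) without the pair of fasted 15 and control 2. The fasted liver was higher on 9 of 10 arrays. High-fat over control ratios were -0.42, -0.36, -0.02, -0.56 and 0.27, with a fitted value of -0.04 ± 0.20 (SE) and a 95% interval of -0.46 to 0.38. Both calls were kept when any 1 mouse was left out, with adjusted p up to 0.00749 and 0.00686. Its spots correlated with an r of 0.98. The other genes that share only the letters did not pass. Il4i1, an amino acid oxidase induced by interleukin-4, had -0.32 ± 0.11 (SE, adjusted p = 0.10) in fasted over high-fat livers, and Ltb4r1, a receptor of leukotriene B4, had -0.18 ± 0.07 (SE, adjusted p = 0.676) in high-fat over control livers.

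**Figure D5:**
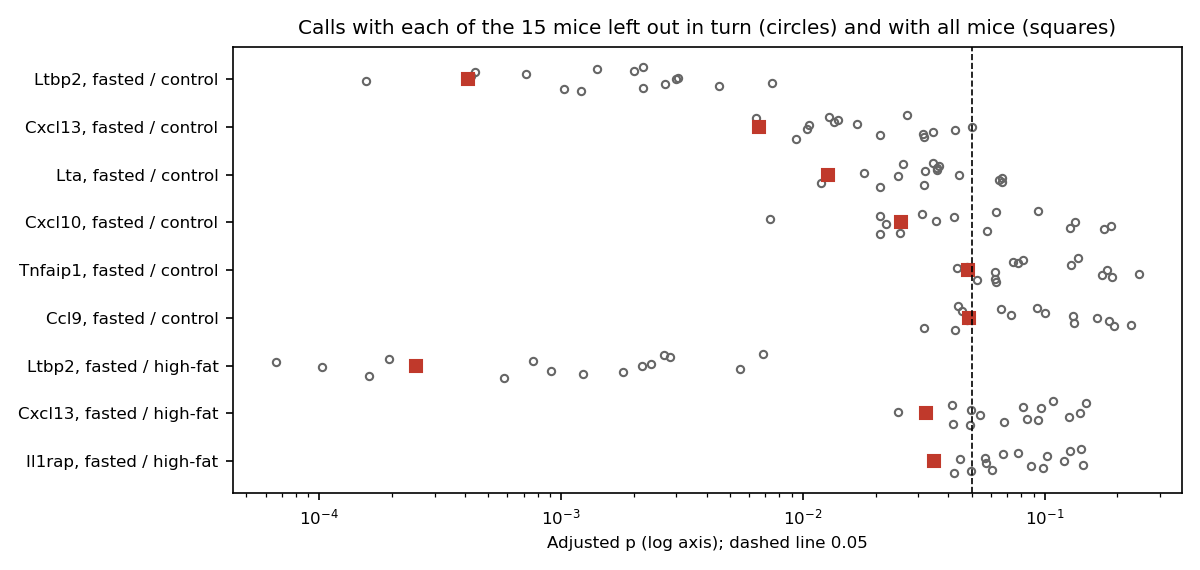
Adjusted p (log axis) of the 9 calls with all 15 mice (red squares) and with each mouse left out in turn (circles); the dashed line marks 0.05. All circles of both Ltbp2 calls and of Cxcl13 in fasted over control livers lie below 0.05, whereas 13 of the 15 circles of Tnfaip1 lie above it.

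Promoter windows are shown for the chemokines and the lymphotoxin that were called in fasted against control livers, since NF-kappaB and STAT factors are known to act on such genes. Each window runs from 250 bases before to 50 bases after the transcription start, from RefSeq on the build GRCm38.p6, and was searched on both strands for 2 motifs. The NF-kappaB motif, a loose form of the site, was GGG, any 5 bases, then CC, and the STAT motif was TTC, any 3 bases, then GAA. Capitals mark the matches, which can overlap each other. No binding was measured here, and a match describes only the letters. Windows of 105 of the 130 members were found in the table, 120 windows in all. The NF-kappaB motif was present in 58.3% of the members' windows and in 50.8% of all 32851 windows of the table, and the STAT motif in 19.2% and 8.30%. Cxcl13 has 1 match and Cxcl10 has 3 matches to the NF-kappaB motif, of which the last 2 overlap. Ccl9 has 1 match, whereas Lta has 2 overlapping matches to it and 2 matches to the STAT motif, which the other 3 windows lack. The window of Tnfaip1, which encodes the TNF-induced protein called in this comparison, is not shown and has 0 matches to either motif. Ltbp2, called in this comparison but no cytokine, has 3 matches to the NF-kappaB motif in its window. Il1rap, called in fasted against high-fat livers, has 6. In both windows some matches overlap, and both have 0 matches to the STAT motif.
Cxcl13 (chr5:95956689-95956988, plus strand): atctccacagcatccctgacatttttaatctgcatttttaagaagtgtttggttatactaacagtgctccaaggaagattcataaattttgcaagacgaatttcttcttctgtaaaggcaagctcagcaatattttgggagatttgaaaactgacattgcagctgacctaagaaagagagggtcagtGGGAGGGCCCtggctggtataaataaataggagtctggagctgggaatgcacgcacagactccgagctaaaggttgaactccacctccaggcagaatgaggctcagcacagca
Cxcl10 (chr5:92348840-92349139, minus strand): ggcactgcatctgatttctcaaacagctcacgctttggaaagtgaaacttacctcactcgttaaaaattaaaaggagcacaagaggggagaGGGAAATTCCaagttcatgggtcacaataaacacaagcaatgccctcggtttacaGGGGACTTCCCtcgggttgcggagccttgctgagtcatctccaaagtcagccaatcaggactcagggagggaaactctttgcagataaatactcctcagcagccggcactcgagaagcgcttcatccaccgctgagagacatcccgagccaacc
Ccl9 (chr11:83578587-83578886, minus strand): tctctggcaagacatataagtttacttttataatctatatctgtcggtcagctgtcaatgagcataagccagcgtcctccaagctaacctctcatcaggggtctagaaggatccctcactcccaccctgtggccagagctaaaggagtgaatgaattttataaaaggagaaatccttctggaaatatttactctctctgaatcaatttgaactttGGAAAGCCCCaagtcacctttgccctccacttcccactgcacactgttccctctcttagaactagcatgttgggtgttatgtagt
Lta (chr17:35205302-35205601, minus strand): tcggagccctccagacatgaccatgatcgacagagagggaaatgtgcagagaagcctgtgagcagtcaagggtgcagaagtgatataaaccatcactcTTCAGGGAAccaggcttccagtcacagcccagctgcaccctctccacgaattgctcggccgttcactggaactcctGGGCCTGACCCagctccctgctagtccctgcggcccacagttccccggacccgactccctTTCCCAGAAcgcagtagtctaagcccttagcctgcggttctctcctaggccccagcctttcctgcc

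The signalling proteins downstream of the receptors were read from 2 lists chosen with earlier results of these data known. Of 37 listed genes of interleukin and interferon signal transduction 29 were measured, and 3 fell (10.3%) and 0 rose in fasted against control livers, beside 5.54% and 4.15% of named genes, with a list median of -0.03. Lifr, the receptor of leukaemia inhibitory factor, had -1.39 ± 0.10 (SE, adjusted p = 8.00e-08), Tyk2, a Janus kinase, had -0.43 ± 0.10 (SE, adjusted p = 0.0133), and Irf5, an interferon regulatory factor, had -0.41 ± 0.11 (SE, adjusted p = 0.0302). In fasted against high-fat livers Lifr (-1.07 ± 0.09, SE, adjusted p = 8.91e-07) and Tyk2 (-0.36 ± 0.10, SE, adjusted p = 0.0394) fell (6.90%) and 0 rose, beside 3.06% and 3.31% of named genes, with a list median of 0.00. In high-fat against control livers 0 of the 29 were called. Of 38 listed genes of NF-kappaB, TNF and interleukin-1 signalling 16 were measured, and 1 rose (6.25%) in fasted against control livers, the caspase-8 regulator Cflar (0.36 ± 0.09, SE, adjusted p = 0.0257). The list median was -0.03, and 0 of the 16 were called in either of the other comparisons.

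Markers of the cells that make or receive these signals were read in the same fits, in which 4.15% of named genes rose and 5.54% fell in fasted against control livers. Of 14 listed markers of macrophages and Kupffer cells 7 were measured, and 4 fell in fasted against control livers (Cd5l, Clec4f, C1qa and C1qc, from -0.68 to -0.38), with a list median of -0.38. Of the other 3 markers, C1qb had -0.10 ± 0.12 (SE), Marco had -0.17 ± 0.11 (SE) and Cd14 had 0.24 ± 0.10 (SE, adjusted p = 0.163), the one marker of the list above 0. The marker median of single pairs was -0.52 for fasted 11 and control 4, -0.12 for fasted 15 and control 2, -0.82 for fasted 13 and control 5 and -0.26 for fasted 14 and control 3. The list median was -0.21 in high-fat over control and -0.17 in fasted over high-fat livers, and 0 of the 7 were called in either comparison. At an unadjusted p below 0.05 in the limma test, 4 of the 7 (57.1%) were lower in high-fat than in control livers, beside 4.61% of named genes. In fasted against high-fat livers 3 of the 7 (42.9%) were lower at that threshold, beside 9.77% of named genes. In both comparisons 0 of the 7 were higher at that threshold. Of 7 endothelial markers measured 2 fell in fasted against control livers (Kdr, -0.30, and Tek, -0.33), with 6 of the 7 below 0 and a list median of -0.07. Of 7 neutrophil markers Camp fell (-2.14), whereas 4 of the 7 were above 0 and the list median was 0.01. Of 8 T and NK cell markers and 5 B cell markers 0 were called, with list medians of -0.09 and 0.01. Of 2 stellate cell and fibroblast markers Dcn rose, and of 4 hepatocyte markers Apoa1 rose and Ttr fell. In fasted against high-fat livers Camp and Ttr fell, and no other listed marker was called. The part of these cells in the results for Cxcl10, Ccl9, Lta and the other members was not tested.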

How the data were processed

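Liver RNA was compared on 28 two-colour arrays. The deposited log2 ratios hold 1 value per spot and array, as the authors processed them. Their log base, normalization and filters are not given in the sources at hand. Per the submitters' processing notes limma was used, without a version or purpose. Array medians of the deposited log2 values ran from -0.23 to 0.35, and arrays were left as deposited. Before turning, the 2 arrays of a swap correlated with r from -0.51 to 0.37, positive in 10 of 14 swaps, where exchanged dyes give negative values. The cause was not tested. Averaging a swap cancels a dye bias that both of its arrays share, but not one that differs between them. Before turning, the mean over the fasted and control arrays was 0.35 for Ccl9, 0.34 for Il1rap, 0.27 for Cxcl13 and -0.26 for Tnfaip1. It was 0.14 for Lta, -0.08 for Ltbp2 and 0.07 for Cxcl10. For Ccl9, Il1rap and Tnfaip1 this mean was larger in size than the fitted fasted over control ratio.

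Spots were named through the platform annotation (9758 of 16416 spots carried 1 symbol, 6658 none, 0 several). All 130 members, with 2 spots each, matched RefSeq by Entrez number under the same symbol. Spots of a gene and both arrays of a swap, turned the same way, were averaged, so that a pair of mice was 1 replicate. A generalised least squares model of the 3 groups was fitted to the 14 pairs, in which pairs with a common mouse were correlated and mice held a share of 0.18 of the variance (the trimmed mean of estimates per feature). Moderation used limma 3.58.1 under R 4.3.3 (12 residual and 4.51 prior degrees of freedom), with Benjamini-Hochberg adjustment over 11457 features and a threshold of 0.05. By their numbers in the labels, the mice were separate animals.

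The members and all lists were chosen with earlier results of these data known. Named with values were members called in any comparison, the 12 of smallest p in each comparison and the one of smallest p in each role group, and listed pathway and marker genes where called. Alternatives were other scalings, fixed shares of 0 and 0.5, robust moderation, single spots, direct pairs alone, each mouse left out and the pair of fasted 15 and control 2 left out. The last was chosen after seeing the data. No columns of other samples were present. Promoter windows came from RefSeq.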

Additional observations from a re-analysis of the deposited data

Results flagged for a closer look

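The values of single pairs were searched for 1 pair far from the others in its comparison, over 37 sets of pairs. Chance marks about 1 set in 20, and 2 were marked. For Cxcl13 in fasted over control livers, the pair of fasted 13 and control 5 had a log2 ratio of 0.63, whereas the other 3 pairs lay between 0.41 and 0.42. For Il16 in fasted over high-fat livers, the pair of fasted 12 and high-fat 6 had -1.14, whereas the other 4 pairs lay between -0.49 and -0.28.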

How the results depend on the processing

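Of 37 member results, 9 were calls with all pairs, and 8 of these 9 lost the call under at least 1 of 25 alternatives. Only the Ltbp2 call in fasted against control livers was kept under all 25. Over the 37 results, 22 kept their direction and their side of the threshold, and this Ltbp2 result was the only call among the 22. A call was gained under at least 1 alternative for 7 results, and 0 changed sign. In fasted against control livers 6 members were called. The count was 1 from the direct pairs alone, 3 with the between-mouse share set at 0.5, 10 without the pair of fasted 15 and control 2 (chosen after seeing the data), and 2 to 11 with 1 mouse left out. It was 2 without control 4, control 5 or fasted 11, 3 without control 3, fasted 13 or high-fat 8, 9 without control 2 and 11 without fasted 15. Leaving out either of the last 2 mice also removes that pair. Without that pair alone 4.21% of named genes rose and 6.23% fell, against 4.15% and 5.54% with all pairs. The shares of named genes under the other alternatives are not given here. Whether the members' counts, here and below, moved with those of all named genes was not tested. In high-fat against control livers the count of 0 became 1 (Il1r1) with arrays scaled to the same spread, and was 0 to 0 with 1 mouse left out. In fasted against high-fat livers 3 members were called. The count was 5 with scaled arrays, 0 from the direct pairs alone, 1 by either spot alone and with a share of 0.5, and 1 to 5 with 1 mouse left out (5 without control 2, with Il16 and Ltb added). A share of 0.5 ended the calls of Ccl9 (adjusted p = 0.129), Cxcl10 (0.0642) and Tnfaip1 (0.117) in fasted against control and of Cxcl13 (0.0961) and Il1rap (0.0965) in fasted against high-fat livers, and robust moderation ended that of Ccl9 (0.0502). In the direct pairs alone the fasted over control calls of Cxcl13 (0.47, adjusted p = 0.199), Cxcl10 (-0.71, 0.293), Lta (-0.26, 0.568), Ccl9 (-0.45, 0.262) and Tnfaip1 (0.26, 0.626) were lost, although only the ratio of Lta was nearer to 0 than with all pairs. There Ltbp2 had 1.21 in fasted over high-fat livers (adjusted p = 0.0501). Fewer pairs entered that fit, and whether this ended the calls was not tested. The pathway genes called in fasted against control livers, 4 with all pairs, were 1 from direct pairs, 2 by the first spot, 2 with a share of 0.5 and 1 to 4 with 1 mouse left out. In fasted against high-fat livers, 2 with all pairs, they were 1 from direct pairs, 1 by the first spot, 1 by the second spot, 1 with a share of 0.5 and 1 to 3 with 1 mouse left out. The causes of all these changes were not tested. Each mouse has a number of its own that no other group shares, so no fit with that number as a block could be made; every fit takes the 2 livers on 1 array as a pair. Signal over background is unknown, so which members were too dim to show a change cannot be told.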
